A study of Homo sapiens with 24 samples.

Results

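The proprotein convertases are proteases of the secretory pathway that cut precursor proteins after basic residues, and 8 of their genes were followed here in H1299 cells that express the p53 isoforms Δ133p53α or Δ133p53β: FURIN, PCSK7, PCSK4, PCSK6, PCSK5, PCSK1, PCSK2 and MBTPS1. They were found by symbol among the 60563 named genes of the count table, and all 8 were present. PCSK5 was chosen by its measured values, because its read counts stood above those of the control in the Δ133p53α lines and below them in the Δ133p53β lines, so its levels are given as a description without a test. The other members were chosen as its relatives, and 5 of them could be tested. H1299 is a p53-null non-small cell lung cancer cell line, and every library came from it. The groups were a vector control, which is a single line (4 libraries), 3 clonal lines that stably express Δ133p53α, Δ133p53α1, Δ133p53α2 and Δ133p53α8 (α1, α2 and α8 for short, 4 libraries each), and 2 clonal lines that stably express Δ133p53β, Δ133p53β5 (β5, 3 libraries) and Δ133p53β10 (β10, 4 libraries). Each isoform line is 1 clone, so clone and isoform cannot be told apart within a line. The sources do not say whether libraries of a line came from separate cultures, so p-values measure the spread between libraries, which may be technical. This holds also for the p-values between the isoforms, where differences between the clones of an isoform do not enter. A further library is labelled Δ133p53β10 but its column is named as a replicate of Δ133p53β5, and it was left out of both groups.

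Convertases are made as inactive zymogens, remove their own prodomain while moving through the secretory pathway, and then cleave growth factors, receptors, integrins and other proteases into their mature forms. FURIN and PCSK7 cycle between the Golgi network and the cell surface in most tissues. PCSK5 and PCSK6 carry cysteine-rich regions and can be held at the cell surface or in the matrix, PCSK1 and PCSK2 process hormone precursors in the granules of neuroendocrine cells, and PCSK4 is best known from germ cells. MBTPS1, also called site-1 protease, cuts after other residues and releases membrane-bound transcription factors of the sterol and stress responses.

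The RefSeq table held windows upstream of 13 starts for the 8 members, and 3 windows of 250 bases are shown for orientation: that of PCSK5, the member with the largest difference between the isoforms, and those of the most upstream FURIN start and of MBTPS1, the members with the highest levels per length. The sequences are those of the RefSeq build GRCh38.p14, written 5′ to 3′ on the strand of the gene. Capitals mark the GC box GGGCGG, the TATA box TATAAA and the CCAAT box, each searched on both strands, and matches of different motifs may overlap. The PCSK5 window lies at chr9:75890423-75890672 on the plus strand (its last 29 bases are in an annotated exon), the FURIN window at chr15:90868338-90868587 on the plus strand, and the MBTPS1 window at chr16:84116943-84117192 on the minus strand.
PCSK5: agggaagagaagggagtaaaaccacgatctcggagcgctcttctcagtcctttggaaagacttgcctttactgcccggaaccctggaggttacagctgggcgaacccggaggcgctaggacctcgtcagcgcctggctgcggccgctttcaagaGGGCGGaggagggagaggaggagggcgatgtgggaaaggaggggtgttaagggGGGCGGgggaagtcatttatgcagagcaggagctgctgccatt
FURIN: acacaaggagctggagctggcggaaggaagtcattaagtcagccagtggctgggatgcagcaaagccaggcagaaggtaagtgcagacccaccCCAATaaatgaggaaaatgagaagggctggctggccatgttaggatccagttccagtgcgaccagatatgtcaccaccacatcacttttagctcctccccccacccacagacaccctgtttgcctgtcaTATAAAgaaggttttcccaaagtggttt
MBTPS1: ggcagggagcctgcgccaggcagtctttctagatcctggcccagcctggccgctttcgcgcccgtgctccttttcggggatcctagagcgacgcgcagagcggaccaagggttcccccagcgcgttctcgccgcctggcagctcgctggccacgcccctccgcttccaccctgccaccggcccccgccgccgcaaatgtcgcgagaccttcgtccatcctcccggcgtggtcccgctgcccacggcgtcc
The PCSK5 window held 2 GC boxes and neither of the other motifs, with 14 CpG dinucleotides and a GC content of 60.4%. The MBTPS1 window was richer in GC, at 71.6% with 29 CpG, and held none of the 3 motifs. The FURIN window held 1 TATA box, 1 CCAAT box and 2 CpG. FURIN has 4 such windows, and they differ: those at chr15:90871290-90871539 and chr15:90871918-90872167 held 3 GC boxes each, with 35 and 28 CpG and a GC content of 80.8% and 78.0%, and the fourth held 1 CCAAT box and 7 CpG. Of all 35116 windows of the same length, 42.6% held a GC box, 10.7% a TATA box and 32.0% a CCAAT box. These matches describe the letters of the windows only.

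Total counts were 21531599 to 25381731 per library. In the markers of the labelled cells, KRT8, KRT18 (epithelial keratins) and VIM (a mesenchymal filament) were high in every library, PTPRC had 0 reads in all libraries, EPCAM had at most 5 reads, the lung genes NKX2-1, SFTPB and SFTPC at most 14, 4 and 1 reads, and the endothelial gene PECAM1 at most 17. KRT8 was 563 ± 128 CPM (counts scaled to the TMM-adjusted library size, SD, n = 4) in the control and 1530 to 3050 CPM as the mean of the isoform lines, and its part in the results was not tested. The libraries also fell into 2 sets by whether long genes were relatively high (12 libraries) or low (12 libraries). Every line had libraries in both sets, but the sets were not balanced. Long genes were high in 3 libraries each of the control, α2 and α8, and in 1 each of α1, β5 and β10. The main fit has no term for the set, so line and set are partly mixed in the comparisons of α1, β5 and β10 with the control and between the isoforms. For PCSK5 and FURIN, values are also given by set. In bulk RNA, fewer cells that express a gene and less RNA per cell cannot be told apart.

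PCSK5, on chromosome 9 (75890644 to 76362975, plus strand, gene identifier ENSG00000099139), was highest in the Δ133p53α lines and lowest in β10. In the control, 15, 9, 11 and 6 reads were counted, corresponding to 0.573, 0.382, 0.401 and 0.254 CPM. The α1 libraries had 79, 32, 33 and 28 reads (3.26, 1.64, 1.84 and 1.5 CPM). The α2 libraries had 39, 91, 104 and 82 reads (2.21, 3.95, 4.28 and 3.30 CPM). Every library of these lines therefore lay above every control library. In α8, the counts were 70, 38, 65 and 42 reads (3.00, 1.77, 2.75 and 1.76 CPM). The β5 libraries had 7, 2 and 2 reads (0.301, 0.0917 and 0.0924 CPM), and β10 had 1, 1, 0 and 0 reads. The β10 libraries were all below the control, whereas 1 β5 library, at 0.301 CPM, lay within the control range of 0.254 to 0.573 CPM. The library with the unclear label had 0 reads.

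**Figure D1:**
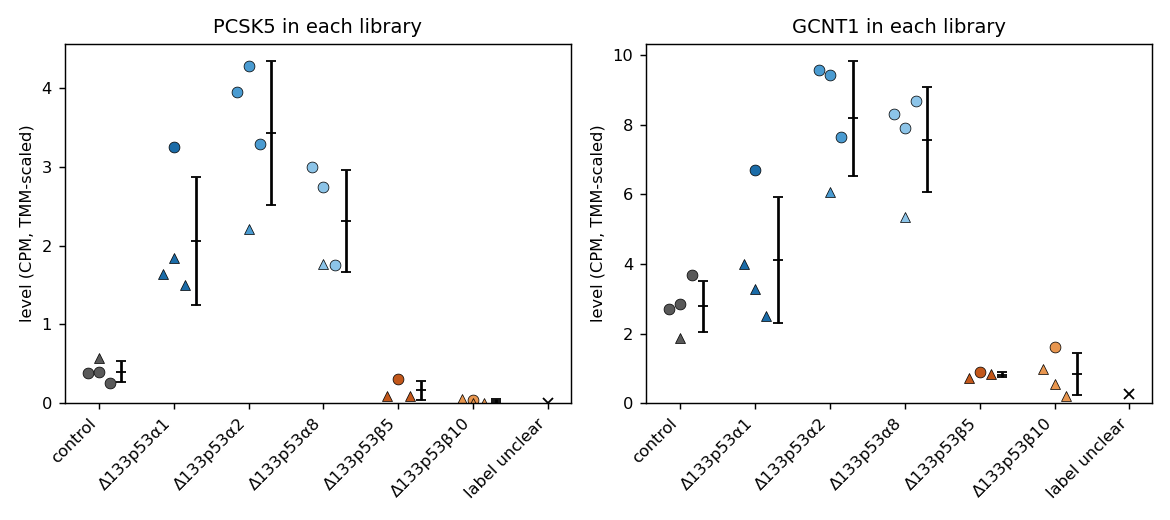
Levels of PCSK5 (left) and of its chromosomal neighbour GCNT1 (right) in CPM after TMM scaling, on linear axes. Points are libraries (circles, the set with long genes high; triangles, the set with long genes low), the bar beside them gives the mean ± SD of the line, and the cross is the library with the unclear label. PCSK5 lay between 1.5 and 4.28 CPM in all Δ133p53α libraries and at or below 0.573 CPM in the control and the Δ133p53β lines.

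Ordered by mean level, PCSK5 was 3.44 ± 0.912 CPM in α2, 2.32 ± 0.649 in α8, 2.06 ± 0.816 in α1, 0.403 ± 0.131 in the control, 0.162 ± 0.120 in β5 and 0.0225 ± 0.0261 in β10 (SD, n = 4 each and n = 3 for β5). The ranges of the 3 Δ133p53α lines overlapped, as did those of the control and β5. The summed reads of PCSK5 were 41 in the control, and relative to it the level was 5.26-fold (exact 95% interval of the counts 3.72 to 7.58) in α1, 8.65-fold (6.23 to 12.3) in α2 and 5.72-fold (4.08 to 8.20) in α8. In β5, with 11 reads, the ratio was 0.405 (0.188 to 0.803), and in β10, with 2 reads, it was 0.0557 (0.00652 to 0.214). These intervals cover counting error only, and reads without molecular identifiers are not independent molecules. The log2 fold change fitted over all libraries was 2.30 (SE 0.405) for α1, 3.04 (SE 0.409) for α2 and 2.47 (SE 0.405) for α8, against -1.31 (SE 0.519) for β5 and -3.90 (SE 0.637) for β10. All 5 share the same control libraries. Leaving out replicate 1 of β5, which held 7 of the 11 reads, moved its PCSK5 log2 fold change to -2.09.

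The level of PCSK5 also differed between the library sets within the Δ133p53α lines. In the set with long genes high, the Δ133p53α libraries had 1.76 to 4.28 CPM (n = 7), the control 0.254 to 0.401 CPM (n = 3) and the Δ133p53β libraries 0.0414 to 0.301 CPM (n = 2). In the other set, the Δ133p53α libraries had 1.5 to 2.21 CPM (n = 5), the single control library 0.573 CPM and the Δ133p53β libraries 0 to 0.0924 CPM (n = 5). Thus PCSK5 was above the control in the Δ133p53α libraries of both sets, and the gap was narrower in the set with long genes low. PCSK5 is the member with the longest transcript, at 10.2 kb.

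Levels of different genes can be compared only per length, here as CPM per kb of the main annotated transcript. FURIN was 11.2 CPM per kb in the control, PCSK7 5.51, PCSK4 1.15, PCSK6 0.0992 and PCSK5 0.0394, while MBTPS1 was 29.9. PCSK5 thus made up 0.217 ± 0.0614% of the summed level per length of the 7 convertases other than MBTPS1 in the control (SD, n = 4). Its share was 1.11 ± 0.608% in α1, 2.44 ± 0.967% in α2 and 1.73 ± 0.618% in α8, and 0.0973 ± 0.0702% in β5 (n = 3) and 0.0121 ± 0.0141% in β10. FURIN and PCSK7 together made up most of the sum in every line, with FURIN at 62.0 ± 2.63% in the control and between 49.5% and 54.3% as the mean of the isoform lines. PCSK5 remained a minor member of the family at the RNA level also where it was highest, in the α2 library with 3.59%.

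**Figure D2:**
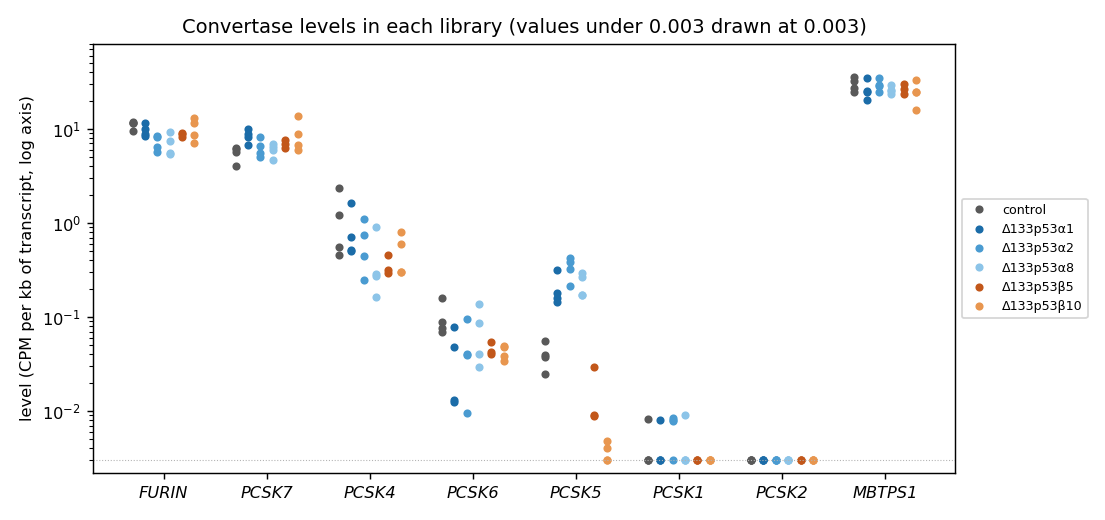
Levels of the 8 convertase genes per library in CPM per kb of transcript on a log axis, coloured by line, with values under 0.003 drawn at 0.003. MBTPS1, FURIN and PCSK7 had the highest levels per length in every line, and PCSK5 spanned the widest range between lines.

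FURIN, the convertase that acts on the widest range of precursors, was lower in α8 than in the control. It had 49.6, 50.6, 48.8 and 40.5 CPM in the control and 31.3, 39.0, 23.7 and 22.7 CPM in α8, and the groups did not overlap. The log2 fold change of FURIN was -0.73 (SE 0.208), with an adjusted p of 0.0469 in edgeR's quasi-likelihood test with Benjamini-Hochberg adjustment over all genes, below the fold threshold for a call (an absolute log2 fold change of at least 1.5). This lay close to the 0.05 threshold, since over 34 settings the adjusted p ranged from 0.0102 to 0.218 and was under 0.05 in 7, and leaving out any 1 of 20 of the 23 libraries, of any line, lifted it above 0.05. In α2, FURIN had 34.8, 35.5, 24.2 and 27.4 CPM, again without overlap with the control (log2 fold change -0.67, adjusted p = 0.0665). In α1, it was 41.3 ± 6.48 CPM (n = 4, adjusted p = 0.429 in edgeR), in β5 37.1 ± 2.15 CPM (n = 3, adjusted p = 0.347 in edgeR) and in β10 43.0 ± 11.8 CPM (n = 4, adjusted p = 0.563 in edgeR). The FURIN difference between the isoforms, the mean of the Δ133p53β lines minus the mean of the Δ133p53α lines, was 0.26 on the log2 scale (95% interval -0.03 to 0.55, adjusted p = 0.365). By library set, FURIN in α8 averaged 25.9 CPM against 46.6 CPM in the control with long genes high (n = 3 each), and 39.0 against 49.6 CPM with long genes low (n = 1 each).

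PCSK7, the other broadly expressed member, had 23.7, 25.5, 16.9 and 26.4 CPM in the control and 28.2, 37.1, 57.3 and 25.0 CPM in β10. The groups overlapped, and the log2 fold change of PCSK7 was 0.63 (SE 0.231, adjusted p = 0.0832). In α1, it was 35.4 ± 5.64 CPM (n = 4), with a log2 fold change of 0.57 (adjusted p = 0.138 in edgeR), and every library was above the control. Neither passed the threshold, but both passed in some alternatives, with the PCSK7 adjusted p for β10 as low as 0.0303 when the library with the unclear label was counted there, 0.0373 with DESeq2 or without replicate 1, and 0.0442 without replicate 4. For α1, leaving out its replicate 1 gave an adjusted p of 0.0483 for PCSK7. Exons of PCSK7 share 2233 bases with TAGLN on the other strand, and the strand setting of the counting is not given in the sources used here, so reads of the pair may not have been told apart.

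MBTPS1, which activates the SREBP and ATF6 transcription factors, had the highest level per length of the 8 genes and log2 fold changes of at most 0.32 in size. Its control values were 107, 156, 141 and 120 CPM, and the means of the isoform lines were 108 to 128 CPM. The log2 fold changes of MBTPS1 from control were -0.07 to -0.32, with adjusted p values of 0.318 to 0.937, and the difference between the isoforms was -0.09 (95% interval -0.39 to 0.21). A change of 1.5 on the log2 scale lay outside every one of the MBTPS1 intervals.

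PCSK4, the germ-cell convertase, had lower means in all 5 isoform lines than in the control, without passing the threshold. Its control values were spread, with 83, 34, 169 and 28 reads or 3.17, 1.44, 6.17 and 1.18 CPM, and replicate 3 had the highest value. The β5 libraries had 0.773, 1.19 and 0.832 CPM, and the α8 libraries 0.428, 2.38, 0.720 and 0.752 CPM. The log2 fold changes of PCSK4 were -0.51 in α1, -0.91 in α2, -1.54 in α8, -1.72 in β5 and -1.26 in β10, with adjusted p values of 0.128 to 0.550. Without control replicate 3, the PCSK4 value for α1 became 0.18 and those of the other lines were -0.23 to -1.07. When the library set was added to the fit, PCSK4 passed in α8 (log2 fold change -1.73, adjusted p = 0.0287), β5 (-2.15, adjusted p = 0.0135) and β10 (-1.79, adjusted p = 0.0261), and without α8 replicate 2 it passed in that line (-2.28, adjusted p = 0.0352).

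PCSK6, which like PCSK5 carries a cysteine-rich region, was near the limit of detection, with 138 reads in all 24 libraries and at most 18 in 1 library. It had 18, 9, 9 and 7 reads in the control and 1 to 14 in the isoform lines. The PCSK6 log2 fold changes were -0.46 to -1.34 (adjusted p values of 0.164 to 0.823), and the isoforms differed by -0.22 (95% interval -1.09 to 0.65, adjusted p = 0.865). Without replicate 1 of α1, the PCSK6 value for that line was -1.95 (adjusted p = 0.0435). Part of the PCSK6 exons lies on the exons of SNRPA1 (24 bases) and of other annotated transcripts, so its few reads may be shared. The neuroendocrine members were not detectable at this depth. PCSK1 had 7 reads in all, at most 1 per library, and PCSK2 had 0 reads in all 24 libraries, which allows up to 3 reads per library or 0.109 to 0.170 CPM.

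Of the 5 members tested besides PCSK5, edgeR called 0 in each of the 6 comparisons at an adjusted p under 0.05 and an absolute log2 fold change of at least 1.5. Over all genes, the share called was 2.58% for α1, 2.81% for α2, 2.53% for α8, 4.27% for β5 and 4.73% for β10 against control, and 1.39% for the isoforms against each other. DESeq2 and limma-voom also called 0 in each. At an unadjusted p under 0.05, there were 2, 1, 2, 1 and 3 members in the lines in that order and 0 between the isoforms. Of the 18295 genes tested, 4688, 2897, 2784, 3898 and 5015 had such a p in the lines, and 3022 between the isoforms. With the adjusted p alone, FURIN in α8 was the only member to pass, where the shares of all genes were 4.83%, 5.28%, 4.51%, 8.03% and 9.81% for the lines and 4.76% between the isoforms. Under that rule, DESeq2 passed FURIN in α2 and α8 and PCSK7 in β10, and limma-voom passed FURIN in α8. With 5 genes and shares of this size over all genes, neither a count of 0 nor the other counts given here are a result about the members.

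**Figure D3:**
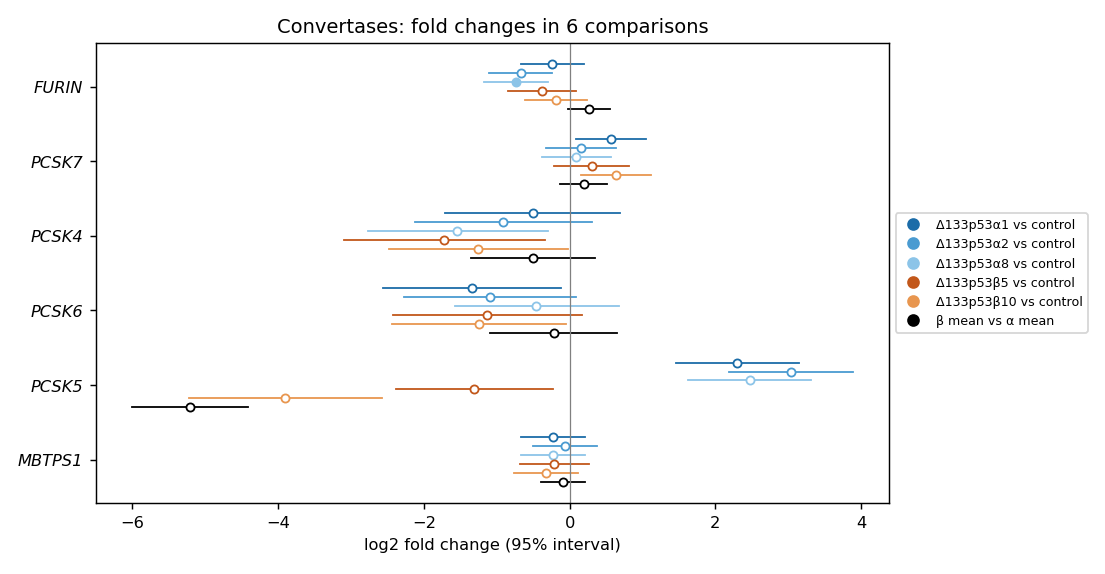
Log2 fold changes of the 6 members that passed the filter on low counts, in the 5 comparisons with control and between the isoforms, with 95% intervals. Filled points passed an adjusted p of 0.05, and PCSK5 is drawn open because it was not tested. PCSK5 lay to the right of 0 in the Δ133p53α lines and to the left in the Δ133p53β lines, and FURIN in α8 is the single filled point.

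The genes next to PCSK5 were then examined, taking the 3 nearest that passed the filter on each side by the annotation. On the side before PCSK5 these were OSTF1, NMRK1 and CARNMT1, at 743 to 862 kb, and after it RFK, RPSAP9 and GCNT1, at 22.6, 35.7 and 56.9 kb. GCNT1, which encodes a glycosyltransferase that branches O-glycans, had the same order of isoforms as PCSK5. In the main fit, the other 5 neighbours did not pass in any of the 6 comparisons. Under alternatives, OSTF1 passed in α2 with DESeq2 (adjusted p = 0.00904) and with the library set as a term in edgeR (0.0292). RPSAP9 passed with that term in α2 (adjusted p = 0.0148) and α8 (0.0363). The GCNT1 values were 1.87, 2.72, 2.85 and 3.68 CPM in the control. They were 6.07, 9.58, 9.43 and 7.65 CPM in α2 and 8.31, 5.36, 7.92 and 8.69 CPM in α8, all above the control. In β5, they were 0.902, 0.734 and 0.832 CPM, and in β10 1.61, 0.971, 0.564 and 0.208 CPM, all below the control.

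GCNT1 rose in α2 (log2 fold change 1.52, SE 0.390, adjusted p = 0.0227) and in α8 (1.41, SE 0.389, adjusted p = 0.0402), and it fell in β5 (-1.78, SE 0.459, adjusted p = 0.0179) and β10 (-1.76, SE 0.414, adjusted p = 0.00858). In α1, GCNT1 was 4.12 ± 1.82 CPM (n = 4) with a log2 fold change of 0.54 (adjusted p = 0.355 in edgeR). Between the isoforms it was lower in the Δ133p53β lines (-2.93, SE 0.308, adjusted p = 2.3e-06), and this difference passed in all 34 settings. The single-line results were less stable. That for α2 missed the threshold without its replicate 3 (GCNT1 adjusted p = 0.053) or without control replicate 1 (0.0728) or 2 (0.0576), and that for β5 without any 1 of its replicates (0.0535 to 0.0861). That for α8 missed it with the replicate number as a block (0.0736) and without any 1 of 8 libraries (its replicates 1, 3 and 4, control replicates 1, 2 and 3, α1 replicate 2 or β5 replicate 2), where the GCNT1 adjusted p was 0.0503 to 0.116. That for β10 missed it when only the groups compared were fitted (0.111). RFK, the riboflavin kinase gene that lies between PCSK5 and GCNT1 by the GENCODE positions, had log2 fold changes of -0.05 to 0.91 from control. Those of RPSAP9, a pseudogene whose reads may be shared with its parent gene, were 0.76 to 1.48. The GCNT1 gene extends from 76419850 to 76651203 on chromosome 9 in GENCODE. RefSeq also has GCNT1 starts nearer to PCSK5, with upstream windows at chr9:76393619-76393868 and chr9:76394603-76394852, so the order and distances given here hold for GENCODE only.

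**Figure D4:**
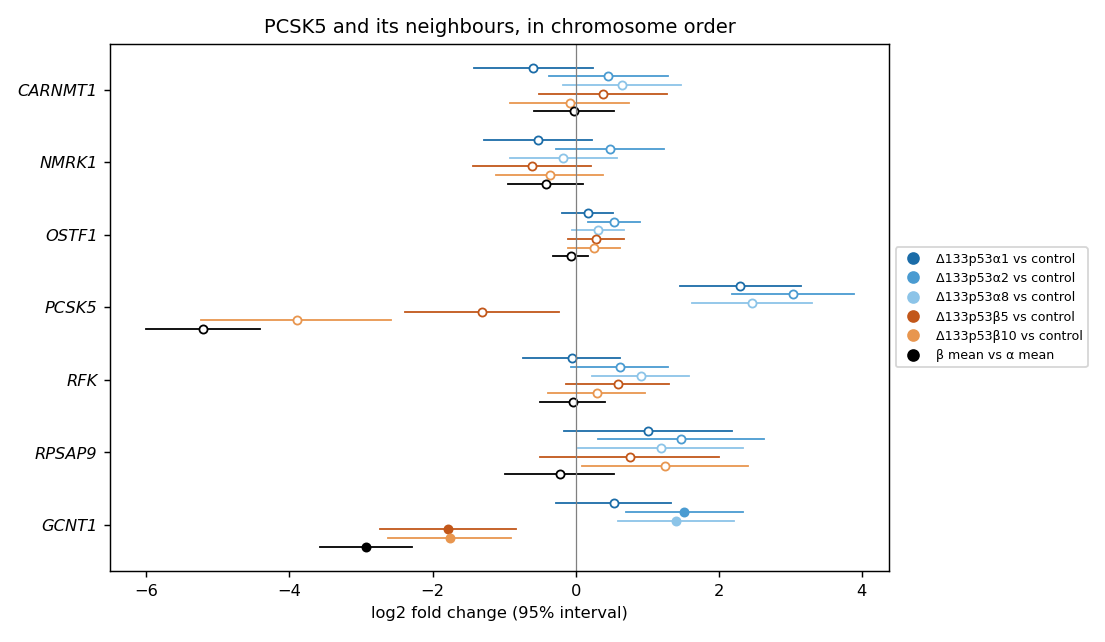
Log2 fold changes with 95% intervals for PCSK5 and the 3 nearest genes on each side that passed the filter, in chromosome order from top to bottom. Filled points passed an adjusted p of 0.05 and PCSK5 was not tested. Only GCNT1 has filled points, to the right of 0 in α2 and α8 and to the left in both Δ133p53β lines.

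The patterns most like that of PCSK5 across the 23 libraries were those of GCNT1 (Pearson r of log2 CPM 0.92), ZNF521 (0.91), CDX2 (0.89), LINC02780 (0.88) and EPHX2 (0.88). ZNF521 and CDX2 encode transcription factors, EPHX2 an epoxide hydrolase and LINC02780 is a long non-coding RNA. Mean ZNF521 levels were 1.18 to 1.81 CPM in the Δ133p53α lines, 0.529 CPM in the control and 0.0328 to 0.0768 CPM in the Δ133p53β lines. LINC02780 averaged 4.81 to 9.60 CPM in the Δ133p53α lines against 0.0274 CPM in the control. Unlike PCSK5, LINC02780 had a higher mean in β5 than in the control, at 0.313 CPM, and it had 0 reads in β10. The most opposite patterns were those of MAGEA1, a cancer-testis antigen gene (r -0.94), HECW1, a ubiquitin ligase gene (-0.93), and POU3F3, a transcription factor gene (-0.91). MAGEA1 was 23.8 ± 2.77 CPM in β5 (n = 3) and 41.2 ± 10.9 CPM in β10 (n = 4), 1.45 ± 0.719 CPM in the control and at most 0.428 CPM in any Δ133p53α library. These genes were picked for their likeness out of 18295, and the points share lines, libraries and depth, so the r values are a description. Among the other members, r with PCSK5 was between -0.46 (FURIN) and 0.27 (MBTPS1).

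Lists of 93 genes that act with or are cut by convertases were then examined, of which 79 could be tested. They hold partners of the convertases, receptors, adhesion molecules, growth factors and hormones, proteases, neuroendocrine precursors and the site-1 protease pathway. At an adjusted p under 0.05, 5 rose and 4 fell in α1, 2 rose and 7 fell in α2, 3 rose and 6 fell in α8, 3 rose and 8 fell in β5, and 5 rose and 8 fell in β10. Between the isoforms, 4 were higher and 5 lower in the Δ133p53β lines. The share past the threshold was 11.4% in each of the Δ133p53α lines, 13.9% in β5, 16.5% in β10 and 11.4% between the isoforms, beside the shares of all genes given above. The median log2 fold change of the listed genes was -0.26, -0.10, -0.14, -0.39 and -0.38 in the lines in that order, beside medians over all genes of -0.0817, 0.00957, -0.0161, -0.0313 and -0.0524. The lists were written with earlier results of these data known, so these counts, shares and medians are a description.

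Among the receptors, which convertases cut into heavy and light chains or at a site before ligand signalling, NOTCH3 fell in all 5 isoform lines. It had 8.06, 5.35, 25.4 and 5.03 CPM in the control and at most 3.26 CPM in any isoform library, and the log2 fold changes of NOTCH3 were -2.41 to -3.50 (adjusted p values of 7.28e-05 to 0.00257). NOTCH3 passed in all 34 settings, but control replicate 3 was high, and without it the log2 fold changes of NOTCH3 were smaller, at -2.12, -2.30, -1.53, -2.37 and -2.61 in α1, α2, α8, β5 and β10. LRP1, an endocytic receptor, fell in all 5 lines (log2 fold changes of -2.08 to -3.22), with 19.4, 15, 63.7 and 12.9 CPM in the control and at most 10.9 CPM in the grouped isoform libraries. The LRP1 value without control replicate 3 was -1.21 in α1 (adjusted p = 0.198), where leaving out its replicates 2 (-1.84) or 3 (-1.90) also put it above 0.05, and -1.63 in α2 (adjusted p = 0.0569). In the other lines LRP1 passed without that control library, with smaller values of -1.81 in α8, -2.38 in β5 and -1.86 in β10, and it was -3.28 in α8 without α8 replicate 2. In fits of only the groups compared, LRP1 missed the threshold in α1 (adjusted p = 0.0911) and α2 (0.0704), and in α1 it also did so with the replicate block (0.0575) and with the library with the unclear label in β5 (0.0532), where the LRP1 value of β5 was -2.40. INSR, the insulin receptor gene, had 0.382, 0.467, 1.02 and 0.381 CPM in the control. It rose in α8 (2.19 to 3.26 CPM, log2 fold change 2.24, adjusted p = 0.001), in β5 (3.74 to 7.30 CPM, 3.17, adjusted p = 4e-05) and in β10 (3.69 to 4.84 CPM, 2.86, adjusted p = 6.36e-05). INSR had 0.0867 to 0.537 CPM in α1 and α2, and between the isoforms it was higher in the Δ133p53β lines (2.97, SE 0.253, adjusted p = 1.54e-07). MET, the hepatocyte growth factor receptor gene and a known convertase substrate, was 55.9 CPM as the control mean and 40.7 to 57.7 CPM in the isoform lines, with log2 fold changes of -0.50 to 0.02 (adjusted p values of 0.421 to 0.995).

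A subset of integrin α chains is cut by convertases before reaching the cell surface. ITGA5, the α5 chain, fell in β5 (38.6 against 76.4 CPM in the control, log2 fold change -1.02, adjusted p = 0.0199), which missed the threshold without β5 replicate 2 (-1.08) or 3 (-0.86) or control replicate 3 (-0.89), and with the library with the unclear label counted in β5 (-0.77, adjusted p = 0.0695). In the other lines, the ITGA5 log2 fold changes were -0.07 to -0.80 (adjusted p values of 0.0639 to 0.861). ITGAV, the αV chain, had means of 25.6 to 39.3 CPM in the isoform lines and 63.7 CPM in the control (log2 fold changes of -0.73 to -1.34, adjusted p values of 0.144 to 0.632), and it moved with the library set, for example at 59.3 CPM in the α1 library with long genes high and 11.8 to 17.3 CPM in the other 3. ITGA3, the α3 chain, named here after its values were seen, was lower in the β lines than in the α lines (-0.84, SE 0.225, adjusted p = 0.0315), with means of 480 and 562 CPM in β5 and β10 and 731 to 1250 CPM in the α lines. It did not pass against the control in any line (ITGA3 adjusted p values of 0.215 to 0.924). The ITGA3 values under the alternatives are not given here, so the stability of this difference is not shown. L1CAM, a neural adhesion molecule, had 19, 11, 54 and 12 reads in the control and 45, 14, 5, 5 and 4 reads summed over α1, α2, α8, β5 and β10. It fell in α8 and β10, to 0.0568 (exact 95% interval of the counts 0.0180 to 0.137) and 0.0476 (0.0127 to 0.126) of the control level. The L1CAM falls in α2 (adjusted p = 0.0426) and β5 (adjusted p = 0.0164) missed the threshold without 1 of 11 libraries, among them every α2 library and control replicate 3 (-1.85), and without β5 replicates 2 (-3.34) or 3 (-3.33) or control replicate 3 (-2.85), respectively. For α2, L1CAM also missed the threshold with no filter on low counts (adjusted p = 0.0522), the replicate block (0.0897) and fits of only the groups compared (0.0694). The L1CAM log2 fold changes of α8 and β10, -3.99 and -4.23, were -3.26 and -3.49 without control replicate 3, -4.82 without α8 replicate 2 and -5.54 without β10 replicate 2, and that of β5, -3.58, was -4.19 without β5 replicate 1.

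Among growth factors, BMP7, a bone morphogenetic protein that convertases mature, fell in all 5 isoform lines. It had 40, 42, 29 and 39 reads in the control, 4 reads in all in α1 and 0 reads in every library of the other 4 lines. Against the control, BMP7 was 29.9-fold lower in α1 (exact 95% interval of the counts 11.4 to 111), and at least 44.6-fold lower in α2, 45.8-fold in α8, 33.1-fold in β5 and 43.8-fold in β10 when 3 reads over the line are taken as the most that a count of 0 allows. The exact 95% limits, which also cover the counting error of the control, were lower for BMP7, at 35.8-fold, 36.8-fold, 26.6-fold and 35.2-fold. EDN1, which encodes the vasoconstrictor endothelin-1, had 0.382, 0.382, 0 and 0.592 CPM in the control and rose to 3.26 to 4.76 CPM in β5 (adjusted p = 0.00135) and 1.75 to 2.98 CPM in β10 (adjusted p = 0.00439). With limma-voom, the EDN1 log2 fold changes of 3.54 in β5 and 2.88 in β10 were 4.28 and 3.61. The EDN1 difference between the isoforms was 1.94 (SE 0.369, adjusted p = 0.00259). PDGFB, a platelet-derived growth factor chain, fell in β5 and β10 (log2 fold changes of -1.55 and -1.51, adjusted p values of 0.0367 and 0.022). For PDGFB, the first missed the threshold with the replicate block (adjusted p = 0.0685), without any 1 β5 library (-1.46, -1.75 and -1.44) or without control replicates 1 (-1.54) or 3 (-1.25), and the second without β10 replicate 3 (-1.39) or control replicate 3 (-1.18). TGFB2 fell in β10 (-2.01, adjusted p = 0.0442), but missed the threshold in fits of only the groups compared (TGFB2 adjusted p = 0.077) and without any 1 of 14 libraries, where the log2 fold change was -1.71 to -2.01, and it was -2.87 without β10 replicate 1. BMP4, named here after its values were seen, rose in α1 (1.5), α2 (1.19) and α8 (1.25). Its adjusted p values in edgeR were 0.00404, 0.0208 and 0.016. BMP4 did not pass in β5 (0.66, adjusted p = 0.247 in edgeR) or β10 (0.58, adjusted p = 0.22 in edgeR). Its values under the alternatives are not given here.

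The protease list had 13 tested genes and the precursor list 2, and few of them passed. Beside the shares of all genes given above, such counts are not a result about the lists. ADAMTS1, a matrix protease with a prodomain that convertases remove, had 2.18, 5.73, 1.28 and 6.47 CPM in the control and 0.0403 to 0.260 CPM in α2 (log2 fold change -5.10, SE 0.675, adjusted p = 4.47e-05). It also fell in α1 (-1.98, adjusted p = 0.0361) and α8 (-2.06, adjusted p = 0.029), and both of these ADAMTS1 results missed the threshold without control replicate 2 (-1.71 and -1.80) or 4 (-1.60 and -1.69). They were also lost without α1 replicates 2, 3 or 4 (-1.82 to -1.92) and without α8 replicates 1, 2 or 3 (-1.80 to -2.19), respectively. In fits of only the groups compared, the ADAMTS1 adjusted p was 0.0914 in α1 and 0.0935 in α8, and with the library with the unclear label in β10 it was 0.0655 and 0.0617. In α1 it was also above 0.05 with limma-voom (0.0648) and with that library in β5 (0.0553), and in α2 the ADAMTS1 value was -5.90 without α2 replicate 2. Between the isoforms, ADAMTS1 was higher in the Δ133p53β lines (1.94, SE 0.375, adjusted p = 0.00294). Its means were 1.47 and 2.34 CPM in β5 and β10, and 0.998, 0.11 and 0.949 CPM in α1, α2 and α8. The ranges of β5 (1.16 to 2.06 CPM) and β10 (1.13 to 3.5 CPM) overlapped those of α1 (0.67 to 1.65 CPM) and α8 (0.373 to 1.38 CPM). Against the control, ADAMTS1 did not pass in β5 (-1.43, adjusted p = 0.146 in edgeR) or β10 (-0.77, adjusted p = 0.328 in edgeR). CHGB, a granule protein that PCSK1 and PCSK2 cut in neuroendocrine cells, was 11 ± 5.70 CPM in the control and fell in β5 (-1.55, adjusted p = 0.00772) and β10 (-2.10, adjusted p = 0.000207). The CHGB result in β5 missed the threshold without its replicate 3 (-1.43), and the fall in α8 (-1.17, adjusted p = 0.0338) without its replicates 1, 3 or 4 (-1.09 to -1.12) or control replicates 1 (-1.12) or 3 (-0.77). That in α8 also missed it with limma-voom (CHGB adjusted p = 0.0534), no filter on low counts (0.067), the replicate block (0.0796) and fits of only the groups compared (0.134).

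In the site-1 protease pathway, CREB3L1, a membrane-bound transcription factor released by MBTPS1, rose in all 5 isoform lines. It had 4.93, 3.74, 7.92 and 3.76 CPM in the control and 11.9 to 31.8 CPM in the grouped isoform libraries, without overlap. The CREB3L1 log2 fold changes were 1.83, 2.03, 1.73, 2.04 and 2.25 in α1, α2, α8, β5 and β10 (adjusted p values of 0.000113 to 0.00205), and it passed in all 34 settings. Of the 14 genes of that list, all tested, 2, 1, 1, 2 and 2 passed in the lines in that order and 0 between the isoforms, beside the shares of all genes given above. Besides CREB3L1, these were CREB3 (higher in α1 and β10) and SREBF1 (lower in β5), named here after their values were seen. Among 10 tested partners, such as the sorting adaptors and carboxypeptidases that act after the convertases, at most 1 passed in any comparison. Over all genes 4.51% to 9.81% passed, so this count is not a result about the partners.

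**Figure D5:**
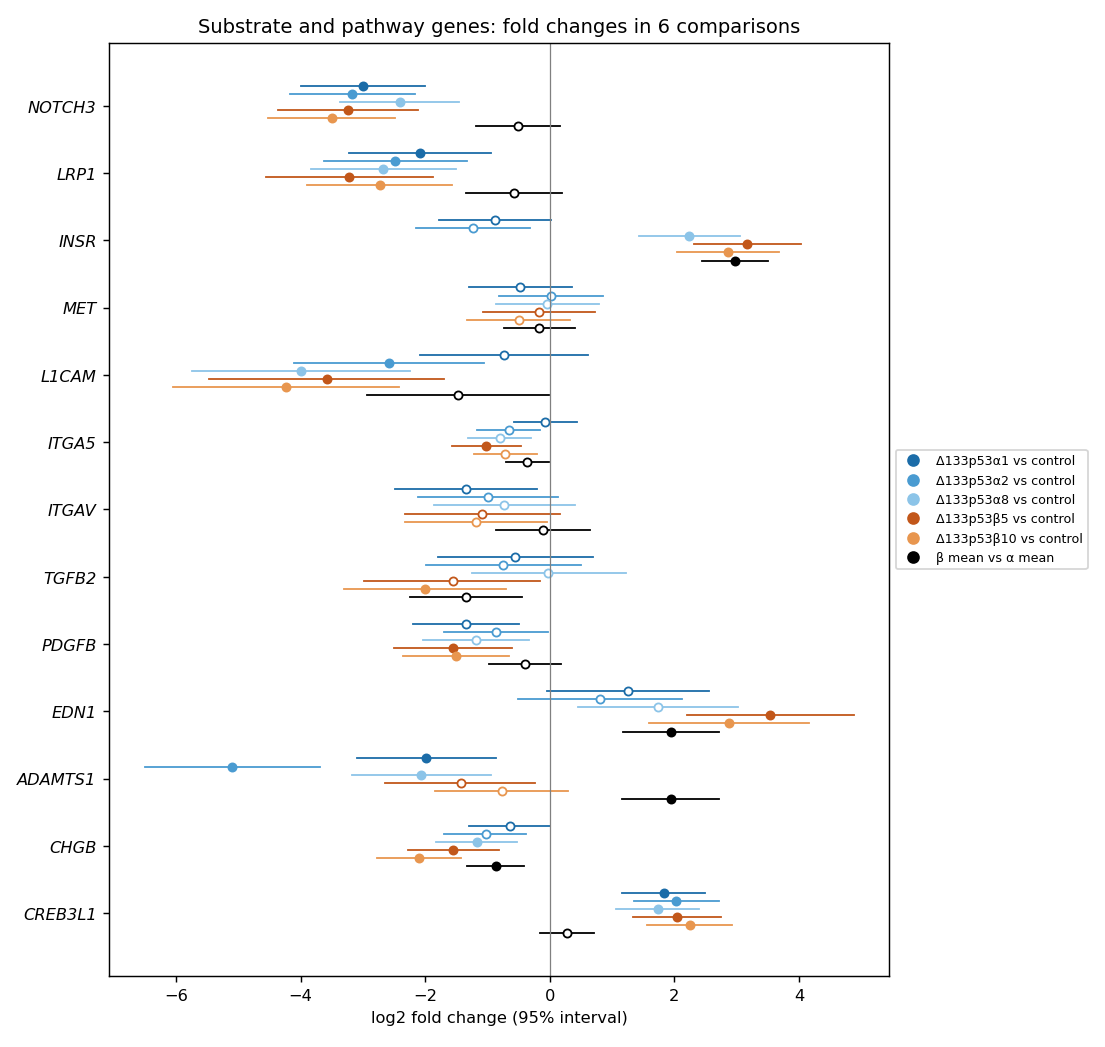
Log2 fold changes with 95% intervals of the substrate and pathway genes chosen by the naming rule, in 6 comparisons, without BMP7, whose libraries at 0 leave the isoform comparison with no usable interval. Genes named after their values were seen are not drawn. Filled points passed an adjusted p of 0.05. NOTCH3 and LRP1 lie to the left of 0 and CREB3L1 to the right in all 5 lines, and INSR is to the right in α8 and both Δ133p53β lines.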

How the data were processed

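Poly(A) RNA of 24 H1299 libraries was sequenced as strand-specific libraries of a vector control and of 5 clonal lines. Before deposit, the authors removed adaptors and bases of low quality with Cutadapt, used HISAT2 for alignment to GRCh38 and featureCounts for counting, and deposited raw counts, which are not normalized. The strand option and the treatment of multimapping reads are not given in the sources used here. Of 60564 genes, 1 without a name had 0 reads and was dropped.

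Groups follow the labels. The counts were analysed with edgeR 4.0.16 in R 4.3.3 (TMM scaling, filterByExpr, which kept 18295 genes, and a quasi-likelihood fit of 6 groups in 23 libraries with 17 residual degrees of freedom). P-values were adjusted by Benjamini and Hochberg across the genes kept. Calls needed an adjusted p below 0.05 together with an absolute log2 fold change of 1.5 or more, whereas "rose" and "fell" rest on the adjusted p alone. PCSK5 received no p-value. Alternatives were DESeq2 1.42.0, limma-voom (limma 3.58.1), other scalings, filters and fold thresholds, a replicate block, the library set (the sign of the rank correlation between gene length and the deviation of a gene from its mean) as a term, fits of only the groups compared, the library with the unclear label in either line, and each library left out. The scripts were tested on simulated data. Gene positions and MANE transcript lengths are from GENCODE on GRCh38. Ratios of summed counts have exact 95% intervals (SciPy 1.17.1). Named were all members, of each list at most 4 called genes with the largest change, MET, ITGA5 and ITGAV, the 5 genes most like and 3 most opposite to PCSK5, and the 3 nearest genes on each side. Genes named after their values were seen are marked as such. Members and lists were chosen with earlier results of these data known. The level of the introduced transcript was not analysed here.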

Additional observations from a re-analysis of the deposited data

Results flagged for a closer look

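In 127 groups of 4 libraries of the named genes, 17 had a library that stood apart by Dixon's test. The test flags about 1 of 20 groups when values are independent and normally distributed. The groups here are CPM values of genes that share the same libraries, so that rate cannot show whether 17 is an excess. Control replicate 3 stood apart for INSR at 1.02 CPM (others 0.381 to 0.467), LRP1 at 63.7 CPM (12.9 to 19.4), NOTCH3 at 25.4 CPM (5.03 to 8.06) and, at the low end, RFK at 16.2 CPM (26.8 to 28.6). Replicate 2 of α8, the only α8 library in the set with long genes low, stood apart for PCSK4 at 2.38 CPM (0.428 to 0.752), CHGB at 6.57 CPM (4.37 to 4.60), LRP1 at 9.27 CPM (2.53 to 3.43) and NOTCH3 at 3.26 CPM (1.67 to 1.82). Replicate 1 of α1, the only α1 library in the set with long genes high, was high for ITGAV at 59.3 CPM (11.8 to 17.3), MET at 78.6 CPM (27.1 to 30.6) and TGFB2 at 13.5 CPM (3.01 to 3.95). Replicate 1 of α2, the only α2 library with long genes low, was low for ITGAV at 8.96 CPM (39.5 to 42.0) and MET at 26.2 CPM (64.5 to 72.2), and high for RPSAP9 at 2.67 CPM (0.781 to 0.886). Replicate 4 of α1 was high for ITGA5 at 107 CPM (62.1 to 67.1) and L1CAM at 1.39 CPM (0.279 to 0.331), and replicate 4 of α8 for TGFB2 at 12.8 CPM (7.27 to 7.71). The part of gene length in these values was not tested.

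Among the neighbours of PCSK5 and the listed genes chosen by the naming rule, the isoforms differed for 5 genes. As the mean of the β lines minus the mean of the α lines on the log2 scale, these were GCNT1 (-2.93, adjusted p = 2.3e-06 in edgeR), INSR (2.97, adjusted p = 1.54e-07), EDN1 (1.94, adjusted p = 0.00259), ADAMTS1 (1.94, adjusted p = 0.00294) and CHGB (-0.87, adjusted p = 0.0214). Other listed genes past the threshold, named here after their values were seen, were ITGA3 (-0.84, adjusted p = 0.0315), PACS2 (-0.74, 0.0385), MMP14 (-0.69, 0.0399), SORT1 (0.38, 0.0416) and BMP2 (-0.95, 0.0461). Their values under the alternatives are not given here. The CHGB difference missed the threshold without β10 replicate 2 (adjusted p = 0.0539) or β5 replicates 2 (0.0576) or 3 (0.0963). For PCSK5 the difference was -5.21, which was not tested because it is the pattern by which the gene was picked. Differences between the clones of an isoform do not enter the p-values given here. INSR averaged 0.309, 0.245 and 2.78 CPM in α1, α2 and α8, and 5.29 and 4.28 CPM in β5 and β10. For ADAMTS1, these means were 0.998, 0.11 and 0.949 CPM, and 1.47 and 2.34 CPM.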

How the results depend on the processing

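Of 340 values of the members' log2 fold changes under alternatives other than leaving out a library, 323 kept their direction and, where tested, their side of the threshold. PCSK5 is included in these numbers, although without a p-value it has no side of the threshold. The number of members called, 0 in each comparison, became 1 in α8, 1 in β5 and 1 in β10 with the library set as a term (PCSK4 each time) and 1 in α8 with a fold threshold of 1.5 (FURIN). Leaving out single libraries gave 0 to 1 in α1 (PCSK6, without α1 replicate 1) and 0 to 1 in α8 (PCSK4, without α8 replicate 2). The number of listed pathway genes past the threshold was 9, 9, 9, 11 and 13 in α1, α2, α8, β5 and β10 and 9 between the isoforms. With the library set as a term it was 18 in α2, 16 in α8, 21 in β5 and 19 between the isoforms, and in fits of only the groups compared 5 in α1, 4 in α2 and 17 in β5. Between the isoforms it was 5 with no filter on low counts. Leaving out single libraries gave 4 (without α1 replicate 3) to 22 (without α1 replicate 1) in α1, 5 (without α2 replicate 4) to 11 in α2, 6 (without β5 replicate 3) to 12 in β5, 8 (without β10 replicate 3) to 18 in β10 and 3 (without β10 replicate 2) to 10 between the isoforms. Over all genes, the number past the threshold in α1 was 884. It was 1778 with DESeq2 and 695 with no filter on low counts. The counts of members and listed genes under the alternatives have no such number for each setting beside them. They describe the settings and are not a result about the members or the lists. The causes were not tested.

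Replicate numbers did not pair the libraries: of 55 pairs that share a number, 23 had deviations correlated above 0.1 (range -0.88 to 0.889). With the replicate number as a block, 5 pathway genes passed between the isoforms, and FURIN in α8 had an adjusted p of 0.0591.

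Some values that had not passed the threshold changed sign. Between the isoforms, PCSK6 was 0.06 with limma-voom and, with the library set as a term, MBTPS1 was 0.03, CARNMT1 0.27 and RFK 0.11, while CARNMT1 was 0.24 in β10 and RFK 0.13 in α1. Leaving out single libraries gave PCSK4 -1.02 to 0.18 and RFK -0.18 to 0.12 and NMRK1 -0.67 to 0.05 in α1, MBTPS1 -0.16 to 0.05 in α2, PCSK7 -0.01 to 0.21 and NMRK1 -0.33 to 0.38 in α8, CARNMT1 -0.33 to 0.17 and NMRK1 -0.50 to 0.22 in β10, and CARNMT1 -0.16 to 0.11 and RFK -0.18 to 0.06 between the isoforms. PCSK5 spanned -2.09 to -1.03 in β5 and -4.35 to -3.53 in β10. PCSK5 and PCSK6 rest on few reads, which limits the precision of their values.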
